A study of Mus musculus with 16 samples.

Results

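H3K27ac peaks near 7 genes of the oxidative burst and of microbicidal metabolism were described in mouse bone marrow-derived macrophages (BMDMs). The genes were Nos2, Acod1, Slc11a1, Cybb, Cyba, Ncf1 and Ncf4, 7 of 21951 protein-coding genes in the annotation. They were chosen as a functional group, and every peak whose edge lay within 50 kb of any of their start sites (mm10) was taken. Control contributed 63 of its 43533 peaks, the IFNγ list 63 of 40708, the PJ34 list 68 of 44090 and the list of the combination 72 of 42960. Overlapping peaks of the 4 lists were merged into 69 regions, of 55218 in all. The farthest region inside the limit lay 49.5 kb from its start site (at Acod1 and at Cybb), and the nearest outside lay 50.2 kb from that of Cybb.

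The cells were primary BMDMs from C57BL/6 mice of 8 to 12 weeks, a strain that carries a loss-of-function allele of Slc11a1. Control cells were untreated. IFNγ cells received interferon gamma at 100 ng/mL for 1 h. PJ34, an inhibitor of poly(ADP-ribose) polymerases, was given at 20 µM, alone or from 1 h before IFNγ. The comparisons ask where the acetylation mark of active promoters and enhancers lay near these genes after IFNγ, and where it lay when PJ34 was present. The labels name 2 replicates per condition, but each condition has a single deposited list made from both. No value below therefore has a replicate error, and no test between conditions was possible.

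Activated macrophages kill ingested microbes with reactive oxygen and nitrogen species and also limit metals and make antibacterial metabolites. The phagocyte NADPH oxidase has a membrane core, encoded by Cybb and Cyba, and cytosolic subunits that join it on activation, among them those encoded by Ncf1 and Ncf4. Nos2 encodes inducible nitric oxide synthase. Acod1 encodes the enzyme that makes the antibacterial metabolite itaconate, and Slc11a1 encodes a phagosomal transporter of divalent metals.

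Strength was compared as a score percentile, the rank of a region's highest-scoring peak among all peaks of the same list, because the deposited scores follow the p-value of the peak caller and so depend on sequencing depth. The depth is not stated in the lists. Many low peaks share a score, the commonest one being held by 7.15% to 11% of a list, so a shift of 10 points near the bottom of a list can be a single score step. The lists also differ in extent, covering between 42.5 Mb (IFNγ) and 52.6 Mb (Control). As a check of the cell type, all 8 macrophage marker genes had a promoter peak in every list and the 9 markers of T cells, B cells and fibroblasts had none in any list. Of 6 neutrophil markers, between 0 and 2 had a promoter peak in a list.

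The promoters of the 4 oxidase genes and of Slc11a1 were already among the highest-ranked regions in untreated cells, whereas that of Nos2 was not. The Nos2 promoter region stood at percentile 32.5 in Control, 69.3 with IFNγ, 66.1 with PJ34 and 57.4 with both. That is a range of 36.8 points, with Control lowest. The Acod1 promoter region stood at 79, 84.1, 90.3 and 92.4 in the same order, a range of 13.4 points with IFNγ+PJ34 highest. Among the oxidase genes the Cyba promoter ranked between 98.2 and 99.7 and the Cybb promoter between 91.2 and 92.6. These are the narrowest ranges of the 7, at 1.45 and 1.4 points. The Slc11a1 promoter stood between 92.6 and 97.2 and the Ncf4 promoter between 88.7 and 97. The Ncf1 promoter spanned 13.1 points, from 86 in PJ34 to 99.1 in IFNγ+PJ34. Near the top of a list a large difference in fold enrichment can be a small difference in percentile, so these ranges are not alike across genes. In fold enrichment over local background the Cyba promoter ran from 48.2 to 84.6, that of Ncf4 from 17.8 to 64.2 and that of Nos2 from 4.35 to 10.6. All 7 genes had a promoter region in all 4 lists, while between 49.3% and 50.6% of annotated genes had a promoter peak in a given list.

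**Figure D1:**
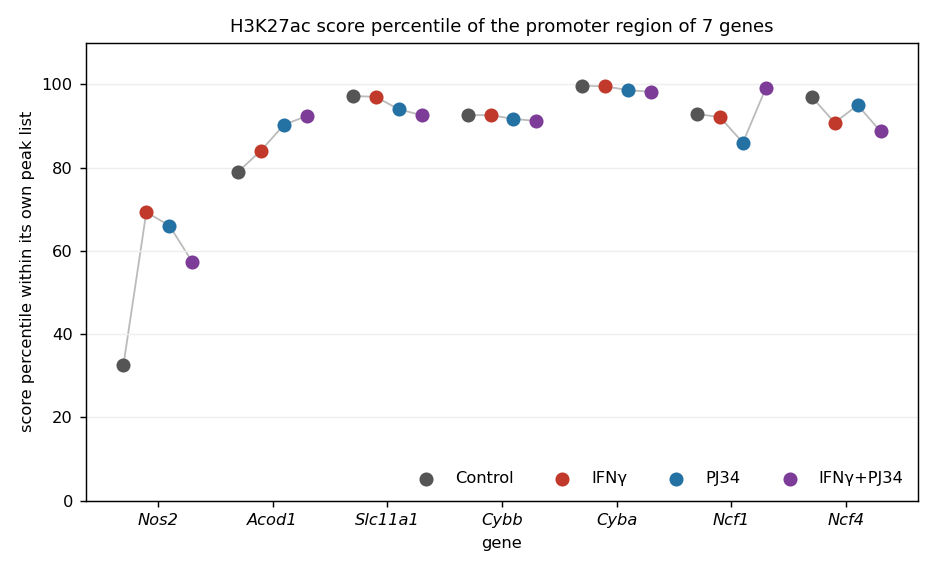
Score percentile of the promoter region of each gene (y axis, percent rank within the list) in the 4 peak lists, 1 point per list with no replicates and grey lines joining the points of a gene. Nos2 has the lowest Control point, at 32.5, and the points of Cyba and of Cybb each lie within 1.45 points.

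Nos2 lies on the forward strand at chr11:78920787-78960254, with start sites at 78920787 and 78925203. It had 8 regions in all, each nearer to Nos2 than to any other protein-coding gene. They formed an upstream cluster, whose near edges lay 30.3 to 34.9 kb before the gene, and a proximal cluster of 5 regions on both sides of the start site. The region with the highest percentile was region 3 of the upstream cluster (chr11:78887179-78890536). It stood at percentile 50.7 in Control, 85.4 with IFNγ, 63.8 with PJ34 and 76.1 with both, with fold enrichments over local background of 6.66, 20.2, 7.08 and 14. Both IFNγ lists thus ranked it above their counterparts without IFNγ.

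The neighbouring region 2 (chr11:78886009-78887057) stood at 32.5, 75.1, 66.8 and 50.2, with fold enrichments of 3.99, 13.5, 9.82 and 6.14. Here the IFNγ list was 42.6 points above Control, but IFNγ+PJ34 was 16.6 points below PJ34. The promoter region itself (chr11:78919565-78920695, ending 92 bp before the start site) had fold enrichments of 4.35, 10.6, 9.03 and 8.44. Region 4 (chr11:78915863-78918317), 2.47 kb upstream, varied less, at 63.3, 67.4, 54.8 and 73.6. Over the 4 regions found in both lists, the median ratio of fold enrichment was 2.74 for IFNγ over Control, where the median of all such regions in the genome was 0.777, and all 4 Nos2 ratios lay above that median. For PJ34 over Control the Nos2 median was 1.57 (all regions 0.885). For IFNγ+PJ34 over IFNγ it was 0.743 (all regions 1.1).

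Of 8 IFNγ peaks at Nos2, 4 overlapped no Control peak, and are called IFNγ-gained here. Over the whole IFNγ list 16.8% of peaks were gained. The strongest was region 1 (chr11:78884598-78885891, 34.9 kb upstream), at percentile 48.7 with fold enrichment 5.68 in IFNγ and 32.8 with 3.55 in PJ34. It was in neither Control nor IFNγ+PJ34. Region 7 (chr11:78920851-78921549), which begins 64 bp after the start site, had the same pattern at percentiles 17 in IFNγ and 25.3 in PJ34. Region 5 (chr11:78918612-78918846) was in the IFNγ list only, at percentile 17. The remaining gained peak (chr11:78917567-78918317, percentile 24.3) lay inside region 4 and overlapped a peak of the PJ34 list and another of the IFNγ+PJ34 list. The PJ34 list thus held 3 of the 4 and IFNγ+PJ34 held 1, and none stood above percentile 48.7 of the IFNγ list. Region 8, 859 bp into the gene, was found in IFNγ+PJ34 only, at percentile 8.96. The IFNγ peak of region 7 ended 762 bp after the start site, so regions 7 and 8 are weak peaks that lie side by side. Regions 1, 5 and 7 each lay within 1 kb of an IFNγ+PJ34 peak, so their absence from that list depends on the overlap rule.

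The sequence under the strongest gained Nos2 peak is shown because no Control peak overlaps it, although a Control peak lies within 1 kb. The 300 bases centred on its IFNγ summit (chr11:78885258-78885557, mm10, forward strand) held none of the 6 motifs searched, and so have no capitals.
Nos2 region 1: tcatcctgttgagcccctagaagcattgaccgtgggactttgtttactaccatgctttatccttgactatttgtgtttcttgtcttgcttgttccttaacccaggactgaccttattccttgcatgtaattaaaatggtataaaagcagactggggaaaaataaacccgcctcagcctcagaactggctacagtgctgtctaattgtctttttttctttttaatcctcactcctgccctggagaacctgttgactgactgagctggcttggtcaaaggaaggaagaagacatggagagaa

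Acod1 lies on the forward strand at chr14:103046977-103056573 and had 20 regions, 10 of them in all 4 lists. It was the nearest gene for 13 of the 20. Its promoter region (chr14:103046059-103051001) had fold enrichments of 13.2, 13.9, 28.7 and 34.4 in Control, IFNγ, PJ34 and IFNγ+PJ34. Both lists with PJ34 were thus above both without it. The strongest upstream region (region 9, chr14:103030990-103041068), a stretch of merged peaks that ended 5.91 kb before the gene, stood at percentiles 87.4, 95.7, 92.3 and 96.9, with fold enrichments of 25.8, 40.4, 36.3 and 48.6. In that region both IFNγ lists exceeded their counterparts.

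A group of 4 regions lay 29.4 to 39.1 kb upstream of Acod1, between it and Kctd12, and each stood 11.5 to 12.9 points higher in IFNγ than in Control. Region 3 (chr14:103011536-103014624) had the largest fold enrichments of the 4, at 15 in Control, 32.8 with IFNγ, 21.1 with PJ34 and 19.5 with both. With PJ34 present the 4 did not move together, and IFNγ+PJ34 minus PJ34 was -11.8, -10.9, -5.62 and 18.2 points for regions 1 to 4. They were picked out after their values had been seen.

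The only gained Acod1 region was region 8 (chr14:103029119-103030108, 16.9 kb upstream), at percentiles 38.4 with IFNγ, 32.8 with PJ34 and 27 with both. It was missing from Control alone, as were 1.35% of all regions. Its 300-base summit window (chr14:103029280-103029579, forward strand) also held none of the motifs.
Acod1 region 8: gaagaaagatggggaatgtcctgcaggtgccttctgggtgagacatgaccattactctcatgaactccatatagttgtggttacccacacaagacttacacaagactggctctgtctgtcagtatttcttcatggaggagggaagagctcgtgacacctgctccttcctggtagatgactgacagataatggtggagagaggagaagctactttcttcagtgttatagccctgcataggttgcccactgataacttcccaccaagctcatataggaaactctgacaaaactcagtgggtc
Between region 9 and the promoter, 4 regions were found only in lists with PJ34. Regions 10 and 12 were in IFNγ+PJ34 only, at percentiles 15.6 and 56.4, and regions 11 and 13 were in PJ34 and IFNγ+PJ34, at 5.78 and 45.6 and at 38.2 and 31.8. Of all regions 10.4% were in IFNγ+PJ34 only, beside 10.1% of the member regions. Those in PJ34 and IFNγ+PJ34 but neither other list made up 0.909% of all regions, beside 4.35%. Regions 10 and 13 lay within 1 kb of an IFNγ peak. Region 15 (chr14:103051108-103051581), in an exon of the gene, stood at 40.2, 69.2 and 62.2 in Control, PJ34 and IFNγ+PJ34 and was missing from IFNγ alone.

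**Figure D2:**
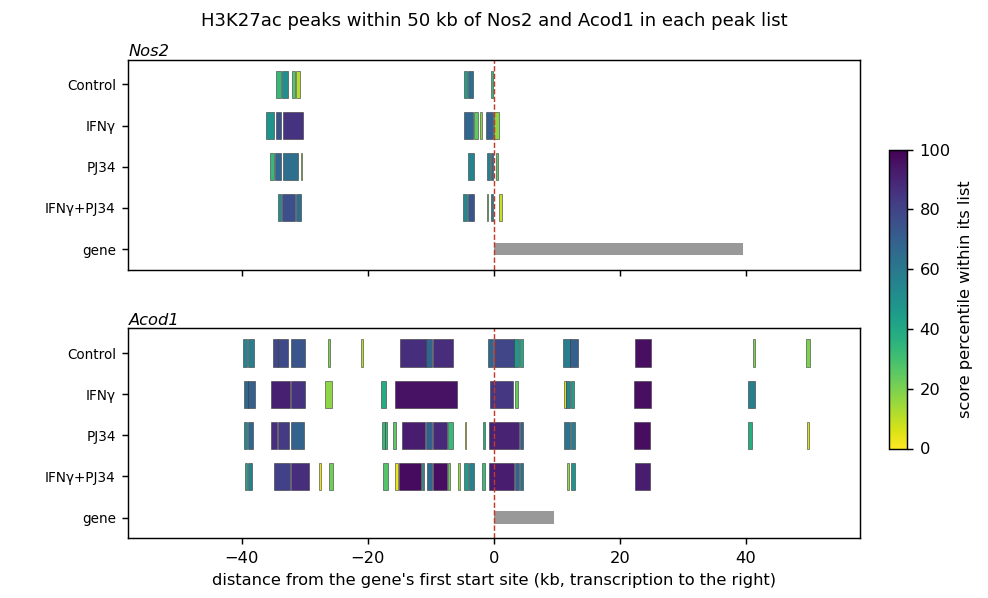
H3K27ac peaks of each list (rows) around Nos2 and Acod1, by distance from the first start site (x axis, kb, transcription to the right). Bars are peaks drawn to scale and coloured by score percentile within the list, grey bars are the genes and the dashed line is the start site. The Nos2 peaks form 2 clusters, and the upstream one is darkest in the IFNγ row. At Acod1 peaks lie on both sides of the start site in every row.

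Of the oxidase core, Cybb (chrX:9435252-9487771, reverse strand, start site 9469324) carried 1 very broad promoter region, chrX:9459315-9475170. Peaks covered 15856 bp of it in Control, 13645 with IFNγ, 15339 with PJ34 and 12251 with both. A single peak spanned it in Control, against 8, 3 and 9 separate peaks in the other lists. Its fold enrichments were 46.4, 28.5, 38.8 and 30.6, so its percentile hardly differed while its fold enrichment was highest in Control. Its fold ratio was 0.614 for IFNγ over Control, beside a median of 0.777 over all shared regions, and 0.836 for PJ34 over Control, beside 0.885. Shared regions thus tended to have lower fold enrichments after either single treatment than in untreated cells, which also bears on the fold values of the genes below. That ratio was not computed for the combination over Control. The median fold enrichment of a whole list was 6.32 for the combination, above 6.12 for Control, while the IFNγ list had 5.51 and the PJ34 list 5.26. An intronic region 20.8 kb downstream of the start site (region 1, chrX:9446767-9448509) stood at 36.8, 56.3, 52.9 and 78, highest in IFNγ+PJ34 and lowest in Control. The other 6 Cybb regions never exceeded percentile 52.1, and 4 of them were in 1 list only.

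Cyba (chr8:122424776-122432930, reverse strand), which encodes the partner that stabilises the Cybb product in the membrane, had the highest-ranked promoter of the 7 in Control, IFNγ and PJ34, while in IFNγ+PJ34 that of Ncf1 was higher. Region 3 (chr8:122428106-122434248) had fold enrichments of 84.6, 61.7, 70.6 and 48.2 in Control, IFNγ, PJ34 and IFNγ+PJ34. Cyba was the nearest gene for this region only. The 6 others within 50 kb were nearer to Il17c, Mvd, Ctu2 or Rnf166, and among them the Mvd promoter (region 5) stood at 78.7, 74.4, 81.4 and 54.3.

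Ncf1 (chr5:134220053-134229625, reverse strand), whose product organises the cytosolic complex, had its highest promoter fold enrichment in IFNγ+PJ34, as Acod1 had. Region 3 (chr5:134226039-134234180) had fold enrichments of 47.2 in Control, 25.2 with IFNγ, 21.6 with PJ34 and 67.2 with both. The combination was 13.1 percentile points above PJ34 and 6.93 above IFNγ, while IFNγ differed from Control by -0.745 points. Ncf1 had 2 further regions in introns of the neighbouring genes Gtf2ird2 and Gtf2i, of which region 2 was in Control only and region 4 stood at 47.2, 17 and 0.856 in Control, IFNγ and PJ34 and was absent from the combination.

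The Ncf1 promoter is shown because 3 of the motifs matched just before its start site. In the RefSeq promoter window (GRCm38.p6, chr5:134229576-134229875, reverse strand, 250 bases before to 50 after the start) a GAS match, TTCTCAGAA, began at position -88 from the start site and shared its last bases with an ISRE core match, GAAAGTGAA, at -82. An NF-kB match, GGGCCTTCC, began at -51. Capitals mark these matches.
Ncf1 promoter: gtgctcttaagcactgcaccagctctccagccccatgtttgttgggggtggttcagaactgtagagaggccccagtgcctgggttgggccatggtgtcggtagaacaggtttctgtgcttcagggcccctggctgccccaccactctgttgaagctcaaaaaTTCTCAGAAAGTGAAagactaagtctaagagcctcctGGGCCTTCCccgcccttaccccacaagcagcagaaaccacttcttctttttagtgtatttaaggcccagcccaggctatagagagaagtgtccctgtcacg
The Cybb promoter window (chrX:9469275-9469574, reverse strand) is shown beside it because it held 3 ISRE core matches, beginning at positions -167, -123 and -29, and an AP-1 match at -139. Capitals mark them again.
Cybb promoter: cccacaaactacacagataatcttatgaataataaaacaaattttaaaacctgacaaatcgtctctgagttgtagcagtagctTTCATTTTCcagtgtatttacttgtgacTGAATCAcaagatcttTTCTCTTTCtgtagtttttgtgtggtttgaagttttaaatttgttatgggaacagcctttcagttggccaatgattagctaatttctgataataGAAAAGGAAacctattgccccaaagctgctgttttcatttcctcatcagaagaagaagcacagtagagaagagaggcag
The RefSeq table also matched Acod1, Slc11a1 and Cyba, 5 of the 7 members in all, and those 3 windows held none of the motifs.

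Ncf4 (chr15:78244801-78262580, forward strand), another cytosolic subunit, had a promoter region (region 1, chr15:78243398-78248921) with fold enrichments of 64.2, 28, 34.7 and 17.8 in Control, IFNγ, PJ34 and IFNγ+PJ34. Its percentile in IFNγ was 6.17 points below Control. An intronic region 12.2 kb into the gene (region 3, chr15:78257039-78259461) had a different order, with 60.8, 31.2, 51.4 and 59.7 and percentiles of 96.1, 93.8, 95.4 and 98.4. It ranked highest of the Ncf4 regions in IFNγ, PJ34 and IFNγ+PJ34, the promoter being higher in Control. All 4 Ncf4 regions shared by Control and IFNγ had fold ratios below the median of all regions, with a median of 0.474. Beyond the gene, regions 8, 9 and 11 were in IFNγ+PJ34 only, at percentiles 38.4, 8.96 and 41, the last in an intron of Csf2rb2.
The summit window of the Ncf4 promoter region (chr15:78244956-78245255, mm10, forward strand) is given because it carried a match, in capitals, to the PU.1 motif, a factor that many macrophage genes use.
Ncf4 region 1: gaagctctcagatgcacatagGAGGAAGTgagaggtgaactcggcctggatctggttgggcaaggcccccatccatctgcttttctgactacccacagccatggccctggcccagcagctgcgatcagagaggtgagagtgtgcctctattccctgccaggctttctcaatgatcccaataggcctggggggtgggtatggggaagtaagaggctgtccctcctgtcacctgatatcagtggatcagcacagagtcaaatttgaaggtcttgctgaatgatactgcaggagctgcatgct

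Slc11a1 (chr1:74375195-74386062, forward strand) had its highest fold enrichment at the promoter in Control. Region 7 (chr1:74374996-74377906) had fold enrichments of 64.1, 50.9, 37.9 and 23.9, and percentiles of 97.2, 97, 94 and 92.6 in Control, IFNγ, PJ34 and IFNγ+PJ34. Intronic region 8 just behind it (chr1:74378011-74383513) stood at 71.5, 58.4, 76.3 and 31.8, and its peaks covered 4068, 3059, 5252 and 548 bp. IFNγ+PJ34 was lowest on both measures. Region 3, 5.22 kb upstream (chr1:74367763-74369973), was highest in IFNγ+PJ34 and lowest in IFNγ, at 70.9, 50.4, 69.2 and 83.1. Regions 4, 5 and 6, weak peaks within 5 kb before the start site, were in Control only. The promoter of the neighbouring gene Ctdsp1, at 99.6, 96.7, 99 and 96.7, ranked highest within 50 kb in every list but IFNγ, where the Slc11a1 promoter was higher.

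**Figure D3:**
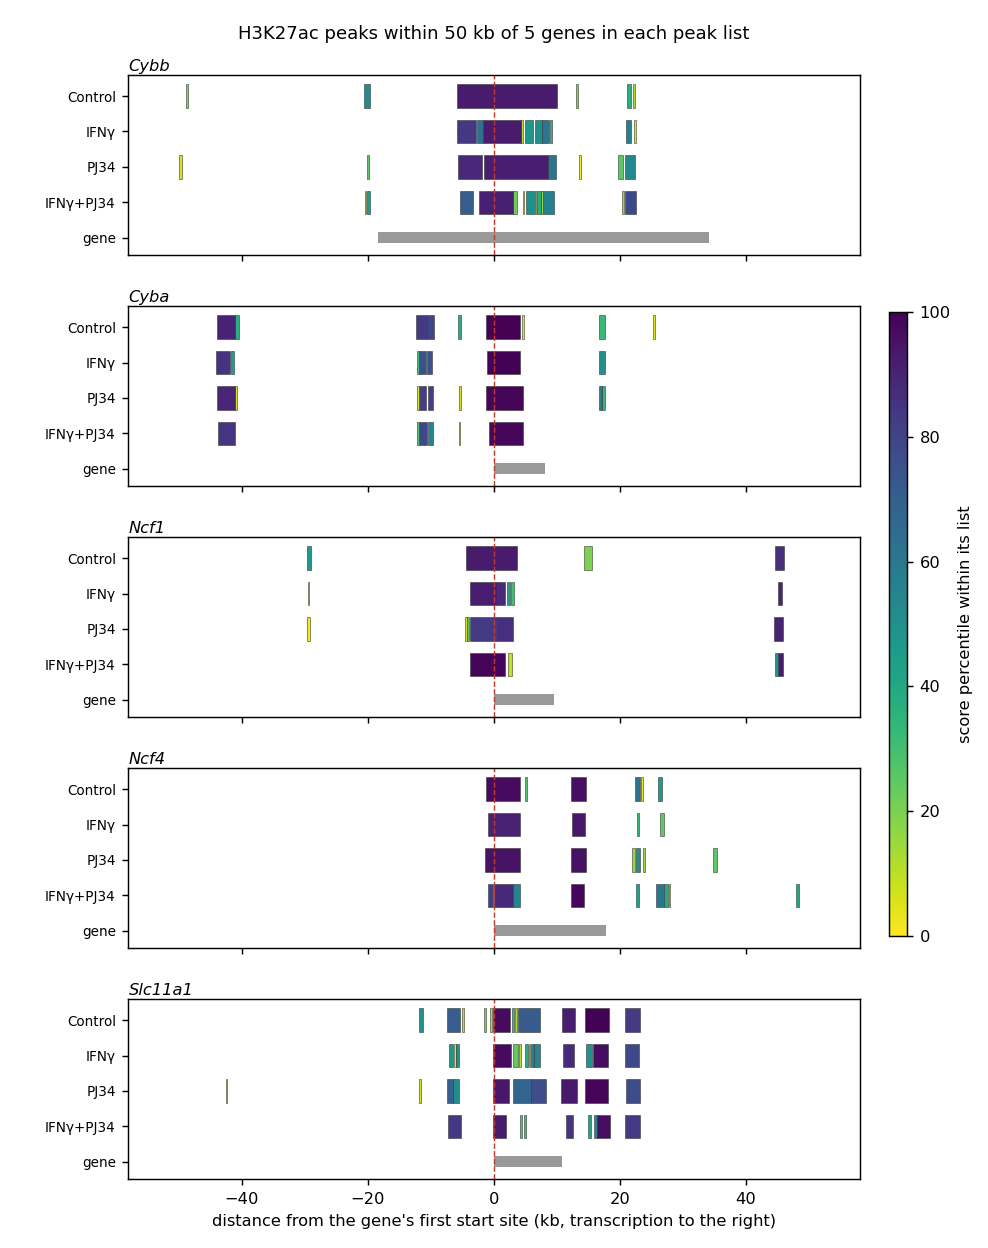
H3K27ac peaks of each list around the 4 oxidase genes and Slc11a1, drawn as for Nos2 and Acod1, with distance from the first start site on the x axis (kb). Bar colour is the score percentile within the list. A dark bar covers every start site in all 4 rows, the widest being that of Cybb in every row but IFNγ+PJ34. At Slc11a1 the bars behind the promoter are shorter in the IFNγ+PJ34 row.

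Taken over all 7 genes, 31 of 69 regions were in all 4 lists, which is 44.9% (exact 95% interval 32.9 to 57.4) beside 38.9% of all regions. Intervals cover counting error only and treat regions as independent, which neighbours are not. By the position of the summit 16 regions were at a promoter, 2 in an exon, 16 in an intron and 35 intergenic. Regions in a single list numbered 22. Of the 69 regions, 9 were in Control only (13%, beside 11.8% of all regions), 7 in IFNγ+PJ34 only (10.1%, beside 10.4%), 5 in PJ34 only (7.25%, beside 8.93%) and 1 in IFNγ only (1.45%, beside 4.07%). The single IFNγ-only region was at Nos2, and the IFNγ+PJ34-only regions were at Nos2, Acod1 and Ncf4.

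Peaks gained with IFNγ were few near these genes. Of 63 IFNγ peaks, 5 overlapped no Control peak, 7.94% (2.63 to 17.6) beside the 16.8% of the whole list, a share inside that interval, and they lay at Nos2 and Acod1. These 2 of 7 genes compare with 26.0% of all protein-coding genes that had a gained peak within 50 kb, so the count of genes was near that share. The PJ34 list held 4 of the 5 gained peaks, and the IFNγ+PJ34 list held 2, beside 43.6% and 38.8% of all gained peaks. Control peaks missing from IFNγ numbered 17 of 63, 27% (16.6 to 39.7) beside 31.7%, and 6 of the 7 genes had at least 1 of them beside 43.7% of all genes. Nos2 was the exception, with none of its 7 Control peaks missing. The shares of 26.0% and 43.7% are over all annotated genes, of which 50.6% had a promoter peak in Control. All 7 members had such a peak, so these shares are not a like background and the shares of peaks are the closer comparison.

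The comparisons of PJ34 with Control gave shares near the background, and those that involve IFNγ+PJ34 gave shares below it. PJ34 peaks absent from Control made up 23.5% (16 of 68, 14.1 to 35.4) beside 19.5%, and Control peaks absent from PJ34 20.6% (13 of 63, 11.5 to 32.7) beside 25.1%. IFNγ+PJ34 peaks absent from IFNγ made up 20.8% (15 of 72, 12.2 to 32) beside 27.2%, and the reverse 17.5% (11 of 63, 9.05 to 29.1) beside 24.1%. Against PJ34, 15.3% of IFNγ+PJ34 peaks were absent (11 of 72, 7.88 to 25.7) beside 25.7%, and 27.9% of PJ34 peaks were absent from IFNγ+PJ34 (19 of 68, 17.7 to 40.1) beside 31.6%. Each background share lay within the interval of the members, that of 25.7% at its upper bound.

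Most upward rank shifts with IFNγ were at Nos2 and Acod1, a shift being a difference of 10 points or more. Between Control and IFNγ, 10 of 36 shared regions shifted up (27.8%, beside 14.9% of all regions) and 6 shifted down (16.7%, beside 28.7%). Both background shares lay inside the intervals of the members, 14.2 to 45.2 for upward and 6.37 to 32.8 for downward shifts. The regions that shifted up were 5 at Acod1, of which only region 4 was nearest to Acod1, 3 at Nos2 and 1 each at Cybb and Cyba. Those that shifted down were 2 each at Slc11a1 and Ncf4 and 1 each at Acod1 and Ncf1. Between Control and PJ34, 9 of 39 shifted up (23.1%, beside 18.5%) and 6 down (15.4%, beside 20.1%), and 3 of the 9 were again at Nos2.

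Fewer regions shifted up than down when PJ34 was added to IFNγ, and the downward share was near its background. From IFNγ to IFNγ+PJ34, 3 of 34 regions shifted up (8.82%, beside 26.1%) and 9 shifted down (26.5%, 12.9 to 44.4, beside 21.4%), of which 5 were at Acod1 and 2 at Nos2. The interval of the upward share, 1.86 to 23.7, lay below its background, but ranked by fold enrichment in place of score 7 of 34 shifted up (20.6%, beside 27.6%) and 9 down (26.5%, beside 23.8%). Ranked by width 4 of 34 shifted up (11.8%, beside 24.5%), and with a shift of 20 points 3 of 34 did (8.82%, beside 13.9%). From PJ34 to IFNγ+PJ34, 8 of 38 shifted up (21.1%, beside 22.1%) and 6 down (15.8%, beside 30.9%). Comparisons that share a list are not independent of each other, and the IFNγ list is the end of the comparison with Control and the start of that with IFNγ+PJ34.

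Regions that moved by 10 points or more in opposite directions without and with PJ34 numbered 4 of 31 found in all lists, 12.9% beside 11.2% of all regions. They were Nos2 region 2, Acod1 regions 1 and 2 and Slc11a1 region 3. Nos2 region 3 and Acod1 region 4 moved up in both settings, by 34.7 and 11.5 points without PJ34 and by 12.3 and 18.2 with it, as did Cybb region 1, by 19.5 and 25.1 points.

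**Figure D4:**
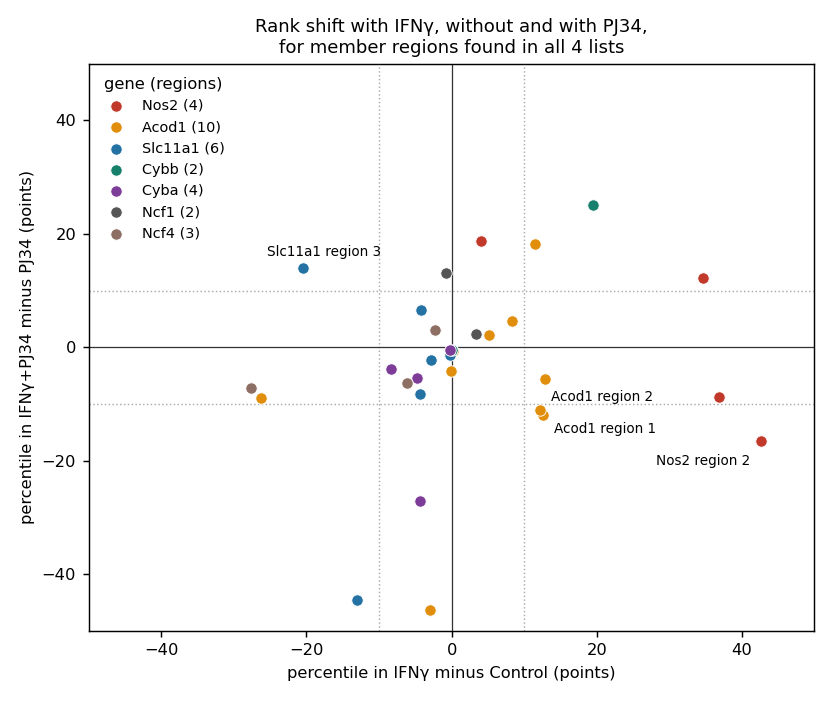
Percentile in IFNγ minus Control (x axis, points) against percentile in IFNγ+PJ34 minus PJ34 (y axis, points), 1 dot for each of the 31 regions found in all 4 lists, coloured by gene. Dotted lines mark 10 points, and the 4 named regions lie beyond them with opposite signs. Nos2 region 2 lies farthest to the right, at 42.6.

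Nos2 also stood apart in the width covered by peaks. Nos2 peaks within 50 kb covered 4.37 kb in Control, 9.55 kb with IFNγ, 6.34 kb with PJ34 and 6 kb with both. IFNγ was thus at 219% of Control, while the whole IFNγ list covered 80.8% of the Control list. Acod1 was at 109% of Control in IFNγ, and the 5 others were between 64% (Ncf1) and 82.3% (Ncf4). Slc11a1 covered 18.3, 14.6, 18.6 and 11 kb, and its IFNγ+PJ34 width, 60.2% of Control, was the lowest share of the 7 in that list. Over all members the widths were 102, 93.5, 101 and 86.2 kb.

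**Figure D5:**
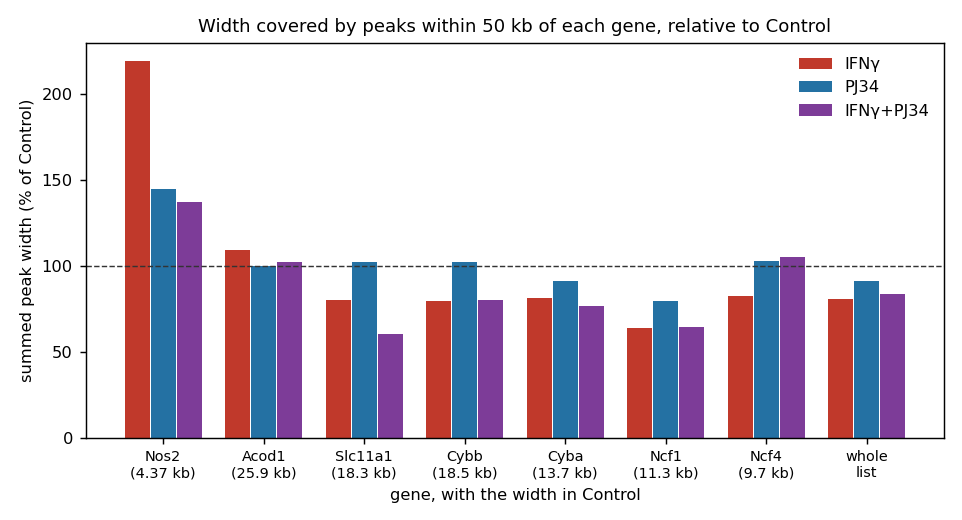
Summed width of the peaks within 50 kb of each gene as a percent of the width in Control (y axis), with the Control width in kb under each name and the whole list at the right. Bars are IFNγ, PJ34 and IFNγ+PJ34, the dashed line is Control and there are no replicates. The Nos2 bar for IFNγ reaches 219%, beside 80.8% for the whole list. The IFNγ bars of Slc11a1, Cybb, Cyba, Ncf1 and Ncf4 lie between 64% and 82.3%.

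The 300-base windows at the summits of the 69 regions were searched on both strands for 6 motifs, which can overlap. GAS (TTCNNNGAA), the gamma-activated sequence, matched in 5 windows, 7.25% beside 8.85% of all regions. Its inverted control (GAANNNTTC) matched in 11.6% beside 7.02%. The ISRE core (GAAANNGAA) matched in 10 windows, 14.5% beside 10%, of which 5 were at Acod1. AP-1 (TGANTCA) matched in 4.35% beside 8.03%, PU.1 (GAGGAAGT) in 4.35% beside 2.19% and NF-kB (GGGNNTTCC) in 7.25% beside 4.16%. The GC content had a median of 49.7% beside 47%. The 5 windows with a GAS match were at Nos2 region 4 (TTCAAGGAA), Acod1 region 3 (TTCCCGGAA), Slc11a1 region 11 (TTCCAGGAA), the Ncf1 promoter and Ncf4 region 11 (TTCCCAGAA). Of all RefSeq promoters 8.3% held a GAS match, 6.84% the control, 8.56% the ISRE core, 7.81% AP-1, 3.2% PU.1 and 5.82% NF-kB.

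Other genes of the same pathways were mostly marked in every list. Of 35 genes, 31 had a promoter peak in Control, 30 with IFNγ, 31 with PJ34 and 30 with both. Of all annotated genes, between 49.3% and 50.6% had one in a given list. The 35 genes were chosen with earlier results of these data known. Those with a peak included all 6 further oxidase subunits and regulators, all 10 genes of oxidant defence and 6 or 7 of 7 genes of nitrogen metabolism. They also included 5 of 6 genes of metal handling, but 2 to 4 of 6 antimicrobial genes. Between Control and IFNγ, 3 of 29 shared promoters shifted up by 10 points or more and 2 shifted down, beside 3.65% and 14.4% of all promoters. Those that stood highest in IFNγ relative to Control were Slc7a2, an arginine transporter (percentiles 11.5 and 44), Clybl, an enzyme of itaconate breakdown (53.6 and 65.9), and Gclm, a subunit of the glutathione-synthesis enzyme (88.3 and 99.2). Slc7a2 was at 25.3 in PJ34 and 65 in IFNγ+PJ34, so IFNγ+PJ34 was its highest list, whereas Clybl was at 65.3 and 31.8. Those that stood lowest were the antimicrobial peptide gene Camp (52.1 and 4.55), the lysozyme gene Lyz2 (97.7 and 81.6) and the glutathione peroxidase gene Gpx1 (95.8 and 87). Camp is also 1 of the 6 neutrophil markers, and was absent from IFNγ+PJ34.

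By promoter percentiles over the 4 lists, the genes most like each member among 11469 with a promoter region were found by Euclidean distance. Those nearest to Ncf1 were Siglec1 and Lair1, at distances of 0.9 and 1.46 points, with Siglec1 at 92.1, 91.9, 86.4 and 99.2. For Nos2 the nearest were Il13ra1 and A230050P20Rik, at 9.19 and 11.9 points.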

How the data were processed

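H3K27ac ChIP-seq of BMDMs was deposited as 1 peak list per condition. Per the study's methods the authors used Bowtie for alignment to mm10, filtered for unique reads, ran MACS on every replicate and its input with a permissive p-value limit, and kept peaks called in both replicates. Per the labels there were 8 ChIP and 8 input samples, and the inputs entered only as background. Each deposited peak has a score, a fold enrichment over local background (a ratio from the authors' caller), a −log10 p-value and a −log10 q-value as the authors wrote them, and a summit offset. Read counts were not used here, so depth is unknown.

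Peaks were assigned to start sites of GENCODE release M21 (basic set). All 21 chromosomes matched mm10 and 0 peaks ran past an end. An overlap of 1 bp made a peak shared with another list. Regions were merged peaks, a promoter was within 1 kb of a start site, and rank shifts of 10 points or more were counted. Motif windows came from the RefSeq GRCm38 genome and promoter sequences from the RefSeq table. Intervals are exact Clopper-Pearson 95% intervals. Interval operations were tested on simulated peaks. Python 3.11.15, numpy 2.4.6, pandas 2.3.3 and scipy 1.17.1 were used. The members, the pathway list and the markers were chosen with earlier results of these data known. The text names, for each member, its promoter region, its highest-ranked region and each IFNγ-gained region, and 3 genes at either end of the pathway list. For Acod1 the highest-ranked region is not reported here. Other regions named were chosen after their values were seen.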

Additional observations from a re-analysis of the deposited data

Results flagged for a closer look

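In 4 regions the IFNγ shift in score percentile had opposite signs without and with PJ34, each by 10 points or more, and the difference was not tested because each condition has a single list. Nos2 region 2, in the upstream cluster of the nitric oxide synthase gene, was 42.6 points higher in IFNγ than in Control, and the value of IFNγ+PJ34 minus PJ34 was -16.6 points. The neighbouring Acod1 regions 1 and 2, 38 to 39.1 kb upstream of the itaconate enzyme gene and nearer to Kctd12, stood 12.6 and 12.2 points higher without PJ34, and with PJ34 the values were -11.8 and -10.9 points. Slc11a1 region 3 went the other way, at -20.5 points without PJ34 and 13.9 points with it. Over the genome 11.2% of regions in all 4 lists met the same description, close to the 12.9% of the members.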

How the results depend on the processing

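No paired analysis was possible because the replicates of a condition are merged in its list, which also meant that leaving out a replicate could not be tried. Of 152 alternative values for 38 results, 115 stayed within the interval or within 1.5 times the value reported. For absent peaks, regions in all 4 lists and members with a gained peak, the alternatives were computed for the members only. Without the share over all peaks under the same setting, these values show the effect of the setting and cannot be set against a background.
With a gap of up to 1 kb counted as shared, the absent share was 14.3% for Control peaks against IFNγ, 7.35% for PJ34 against Control, 9.52% for Control against PJ34, 8.33% for IFNγ+PJ34 against IFNγ, 6.35% for IFNγ against IFNγ+PJ34 and 13.2% for PJ34 against IFNγ+PJ34. Gained peaks then numbered 2, at Nos2 region 5 and Acod1 region 8, since the others lay within 1 kb of a Control peak. The PJ34 list and the IFNγ+PJ34 list each held 100% of these 2, and 60.9% of regions were in all 4 lists. With an overlap of at least 50% the absent shares were 33.3% for Control against PJ34 and 30.2% for IFNγ against IFNγ+PJ34, and 31.9% of regions were in all 4 lists.
In the higher-scoring 50% of each list the absent shares were 9.38% for Control against IFNγ, 3.12% for Control against PJ34, 10% for IFNγ+PJ34 against IFNγ and 7.5% for IFNγ+PJ34 against PJ34. There 61.1% of regions were in all 4 lists, and 4 members had a gained peak, since a peak whose partner falls below the limit counts as gained. Members with a gained peak numbered 1 within 10 kb and 4 within 100 kb, and 14.8% of PJ34 peaks were absent from IFNγ+PJ34 within 10 kb.
With a shift of 20 points, regions up against Control numbered 4 in IFNγ (11.1%, beside 7.39% of all regions) and 4 in PJ34 (10.3%, beside 8.32%). In IFNγ+PJ34, 5 were down against IFNγ (14.7%, beside 10.9%), and against PJ34 3 were up (7.89%, beside 12.7%) and 3 down (7.89%, beside 16.2%). Ranked by fold enrichment, 7 were up in IFNγ+PJ34 against IFNγ (20.6%, beside 27.6%) and 10 down against PJ34 (26.3%, beside 32.1%). Over whole regions, which are longer than the windows, 42% held a GAS match beside 29% of all regions, and 30.4% the inverted control beside 23.3%. All 6 motifs had a higher share in the members on this measure, and the length of the regions was not matched. Within 100 kb the IFNγ width of Acod1 was 99.2% of Control, and that of Ncf4 108%, on the other side of 100% in both cases.
With 1 list per condition the spread between replicates is unknown, and depth cannot be separated from treatment. A missing peak says only that none was called in both replicates.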
